A study of Mus musculus with 2 samples.

Results

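The 10 genes coding for the oligoadenylate synthetases Oas1a, Oas1g, Oas2 and Oas3, the synthetase-like proteins Oasl1 and Oasl2, the tetratricopeptide proteins Ifit1, Ifit2 and Ifit3, and viperin (Rsad2), were measured in mouse intestine. They were found as all gene spots whose gene name in both array files was 1 of these 10 names, which gave 16 of 41174 probes and 10 of the 18987 genes tested. The 10 names had been picked with the knockout to wild type ratios of these same arrays known, so their values are given as a description, without a test.

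Intestine of mice labelled gut-specific GDE5 (Gpcpd1) deficient, genotype GDE5 KO, was compared with intestine of mice labelled wild-type. GDE5, the product of Gpcpd1, splits glycerophosphocholine and so frees choline, and the design asks how transcripts in the gut differ without it. All animals were male, 20 weeks old, on a C57BL/6 background per the series title, and on a normal diet. The series text speaks of 5 mice, without saying whether that is per genotype or whether their RNA was pooled. The promoter that drives the gut deletion and the deleted part of the gene are not given in the sources used here. Both genotypes were hybridised together on 2 dual-colour arrays on 1 slide. The labelled knockout RNA carried the dye Cy3 on replicate 1 and the dye Cy5 on replicate 2, so the dyes were swapped. Nothing in the labels says that the arrays hold separate RNA extracts, so each SD is the spread of 2 hybridisations and can be technical, and precision is limited by how few arrays there are.

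Interferons are secreted when cells sense foreign nucleic acid. They bind receptors whose kinases activate transcription factors, and these bind a DNA element, the interferon-stimulated response element (ISRE), in front of antiviral genes such as those described here. Oligoadenylate synthetases sense double-stranded RNA and make short adenylate chains as a messenger, Ifit proteins bind viral RNA, and viperin makes a nucleotide that stops viral RNA synthesis.

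Every ratio below is a log2 ratio of the labelled knockout over the labelled wild type, as the mean ± SD of 2 arrays. Intensities are in arbitrary units after background correction and normalization. Normalization was done within each array only, so intensities of different arrays are not on a common scale and are compared only within an array. The targeted gene was not lower in the labelled knockout. The 4 Gpcpd1 probes were at 0.68 ± 0.56, 0.47 ± 0.25, 0.62 ± 0.08 and -0.13 ± 0.43, and a probe outside the deleted part checks nothing. Every direction below therefore rests on the dye labels alone. Spots well above background made up 75.3% and 70.3% of all gene spots for the labelled knockout on replicates 1 and 2, and 69.3% and 76.1% for the labelled wild type. Over all 18987 genes the ratios of the 2 arrays, both turned to knockout over wild type, correlated at r = -0.38 (Spearman -0.42), and at -0.02 as the scanner software's processed ratios. Both arrays share 1 slide. A ratio of at least 1.5-fold in the same dye direction on both arrays was found for 199 genes, of which 196 were brighter in Cy3, and in the same genotype direction for 41 genes. With 1 residual degree of freedom, limma called 0 of all genes at a Benjamini-Hochberg adjusted p under 0.05, and 236 (1.24%) had an unadjusted p under 0.05.

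Oasl2, viperin, Oas2 and Ifit1 were the members furthest above 0, at mean ratios between 1.52-fold and 1.78-fold higher in the labelled knockout. Oas1a, Oas3 and Oasl1 lay between 1.30-fold and 1.39-fold. Oas1g, Ifit3 and Ifit2 lay between 1.11-fold and 1.15-fold. The ratio was above 0 on both arrays in 9 of the 10 genes, a state that 16.9% of all genes tested shared, while 18.1% were below 0 on both. The exception was Ifit2, which had ratios of opposite sign. Both arrays reached 1.5-fold in 3 genes, Oasl2, Rsad2 and Oas2, a level that 0.158% of all genes tested reached upward and 0.0579% downward. That count of 3 was 1 with median centring, with all spots kept and with only the spots marked for the feature left out. Over all genes, 30 reached that level upward in the setting reported, and 21, 14 and 14 in those settings. In other settings the members' count rose to as many as 4. Since the genes were picked from this contrast, nothing is read from these counts. The median of the 10 was 0.43, with 0.47 on replicate 1 and 0.55 on replicate 2, beside a median of -0.01 over all genes tested. Counted from the top of the mean ratios of all 18987 genes, Oasl2 was at place 16, Rsad2 at 20, Oas2 at 31, Ifit1 at 58 and Oas1a at 166. Oas3 and Oasl1 stood at 420 and 438, and Oas1g, Ifit3 and Ifit2 at 1665, 1930 and 2256.

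**Figure D1:**
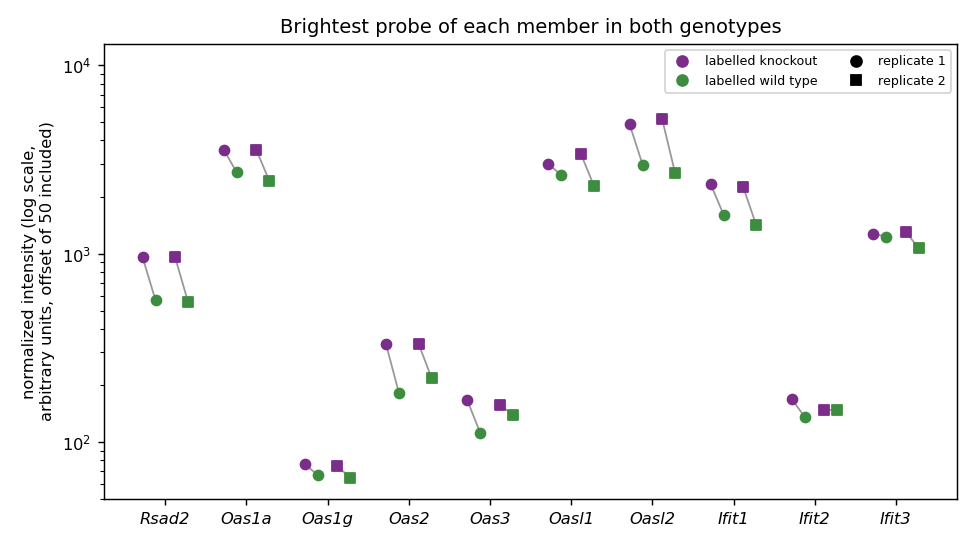
Normalized intensity (log scale, arbitrary units, with the offset of 50 that the background correction adds) of the brightest probe of each gene in the labelled knockout (purple) and the labelled wild type (green), with circles for replicate 1 and squares for replicate 2. Lines join the 2 genotypes of 1 array, and Ifit2 on replicate 2 is the only pair in which the labelled wild type is the brighter; levels of different genes are not comparable, since probes differ.

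Rsad2 encodes viperin, a radical SAM enzyme of the endoplasmic reticulum and lipid droplets. Its brightest probe had intensities of 960.3 and 963 in the labelled knockout, and 567 and 557 in the labelled wild type on replicates 1 and 2. The ratios of 0.76 and 0.79 gave a mean of 0.77 ± 0.02, or 1.71-fold. This was the gene with the smallest gap between arrays among the 3 at 1.5-fold or more. Its other 2 probes were dim, at 127 and 128 in the labelled knockout against 109 and 106 in the labelled wild type for A_51_P505132, and at 133 and 146 against 120.4 and 109.5 for A_51_P505134. All 3 probes were higher in the labelled knockout on both arrays, but the dim ones gave 0.25 ± 0.03 and 0.28 ± 0.19. The scanner software's processed ratios, which carry no offset, were 0.53 ± 0.08 and 0.70 ± 0.04 for the dim probes and 0.83 ± 0.08 for the bright one. The first 30 of the 60 bases of each probe are shown, because the reading for viperin depends on the probe:
Rsad2 A_52_P670026: tgtttggagtttggagtctaatggttgcat
Rsad2 A_51_P505132: tatggggagtatttggacattcttgctatc
Rsad2 A_51_P505134: gaatctaaccagaagatgaaagactcctac
The bright probe lies at chr12:27127859-27127918 on the minus strand of mm9, the build of the array files, and starts at base 3474 of the transcript. The other 2 start at bases 540 and 909, and in mm9 they span 3302 and 3039 bases, so each crosses at least 1 intron. No annotation of mm9 was used here, so exons and UTRs were not assigned.

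Oas1a, Oas1g, Oas2 and Oas3 code for the oligoadenylate synthetases proper. Oas2, a synthetase with a pair of catalytic-type units, had 331 and 334 in the labelled knockout and 181 and 219 in the labelled wild type with probe A_51_P277994. The ratios of 0.86 and 0.61 gave 0.74 ± 0.18, or 1.66-fold. Its other probe, A_52_P587071, was not well above background in either genotype on either array, and its ratio was not used.

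Oas1a, a single-unit synthetase, had 3577 and 3578 in the labelled knockout, and 2704 and 2448 in the labelled wild type. The ratio was 0.48 ± 0.10, or 1.39-fold. Oas1g, its close neighbour in the gene cluster, was near background, at 76.2 and 74.8 in the labelled knockout and 66.9 and 64.5 in the labelled wild type. The labelled wild type was well above background on 1 of 2 arrays, so Oas1g entered the tested genes through the labelled knockout, where it was the higher. Its ratio was 0.20 ± 0.02 here and 0.91 ± 0.31 as the software's processed ratio, so its size depends on the background correction. The design file places only 19 of the 60 bases of the Oas1g probe, at chr5:121326151-121326169 in mm9. The Oas1a probe lies whole at chr5:121348348-121348407, and whether either probe also binds RNA of the other gene was not tested.
Oas1a A_52_P337357: ctgaagaggctgatgtgtgggtatggtacc
Oas1g A_51_P355267: ggcccataggtatgatgaaaataaaaggta

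Oas3, the longest of the synthetases, had 167 and 158 in the labelled knockout and 112 and 139.6 in the labelled wild type with probe A_51_P472867. The ratio was 0.58 on replicate 1 and 0.18 on replicate 2, a mean of 0.38 ± 0.28 or 1.30-fold. Its other probe, A_52_P516296, starts 5' of it in the transcript, at base 2940 against base 4167. It had 157 and 144 in the labelled knockout, against 114 and 126 in the labelled wild type, and gave 0.33 ± 0.20. Both probes thus had the larger ratio on replicate 1. As processed ratios they were at 0.49 ± 0.02 and 0.76 ± 0.64.

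Oasl1 and Oasl2 resemble the synthetases and carry ubiquitin-like domains. Mouse Oasl1 is known as a translational brake on the transcription factor Irf7, and mouse Oasl2 has kept synthetase activity. Oasl2 had 4863 and 5202 in the labelled knockout, and 2973 and 2687 in the labelled wild type with probe A_51_P387123. The ratios were 0.71 and 0.95, or 0.83 ± 0.17 and 1.78-fold. The processed ratios of the same probe were further apart, at 0.45 and 1.08, and their mean of 0.77 lay below those of Oas2, Oas1g and Rsad2. Its other probe, A_52_P787894, was well above background in the labelled knockout of replicate 1 only and was not tested. Oasl1 had 2986 and 3388 in the labelled knockout and 2622 and 2298 in the labelled wild type. The ratio was 0.19 on replicate 1 and 0.56 on replicate 2, or 0.37 ± 0.26 and 1.30-fold.
Oasl2 A_51_P387123: tgctctagaatggtaccaatccagtatcaa
Oasl2 A_52_P787894: taactaacaagttgtccatcacatcttgaa
These sequences are the first 30 bases of the Oasl2 probe that gave a ratio and of the one near background. In mm9 they lie at chr5:115362168-115362227 and chr5:115353499-115353558.

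Ifit1 binds viral RNA whose cap lacks a methyl group. It had 2335 and 2252 in the labelled knockout and 1603 and 1420.1 in the labelled wild type. The ratios of 0.54 and 0.67 gave 0.60 ± 0.09, or 1.52-fold. Replicate 1 fell just short of 1.5-fold, so Ifit1 is not among the 3 genes counted above.

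Ifit3, a partner that stabilises the binding of Ifit1 to RNA in human cells, had 1280.4 and 1313 in the labelled knockout and 1231 and 1070.4 in the labelled wild type. On replicate 1 the values of the genotypes were close, and the mean ratio was 0.18 ± 0.17. Ifit2, which binds AU-rich RNA, had 169 and 147 in the labelled knockout, and 136 and 149 in the labelled wild type with probe A_51_P161021. The ratios of 0.31 and -0.02 had opposite signs, and the SD of 0.23 exceeded the mean of 0.15. Its other probe, A_52_P542388, was near background and gave 0.06 ± 0.07, against 0.36 ± 0.08 as the processed ratio. The 3 Ifit genes lie in 1 cluster on chromosome 19, where the Ifit1 probe is at chr19:34723796-34723855 and the Ifit3 probe at chr19:34663105-34663164 in mm9.

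**Figure D2:**
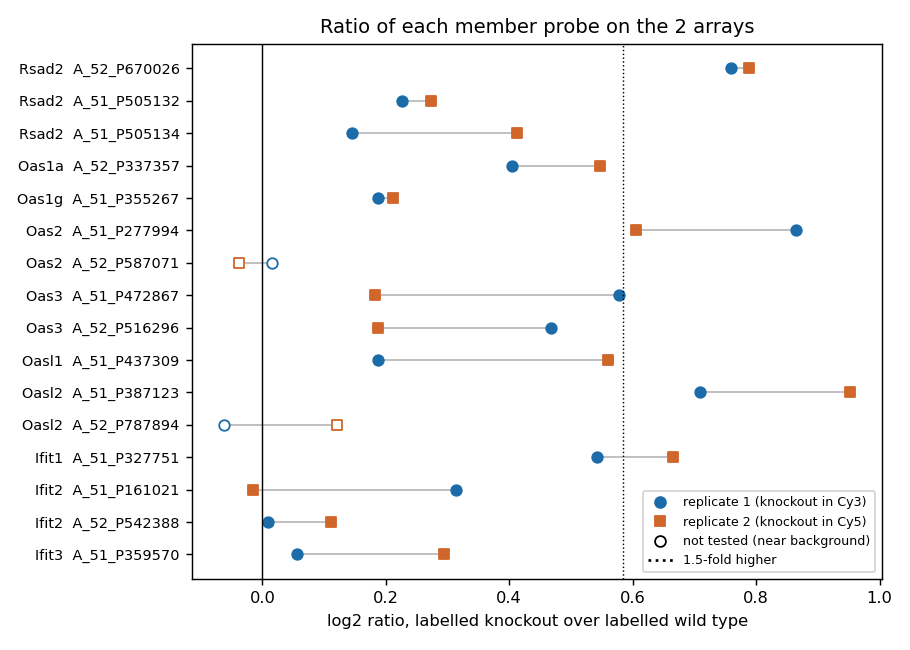
Log2 ratio of the labelled knockout over the labelled wild type on replicate 1 (circles) and replicate 2 (squares) for all 16 probes, with open symbols for the 2 probes too near background to test and a dotted line at 1.5-fold. Of the 14 tested probes 13 lie above 0 on both arrays, and 3 lie past the dotted line on both. Of all 29046 tested probes 17.4% and 0.12% do so.

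Counted by probe, 14 of the 16 passed the filter on dim signal. Of these, 13 were above 0 on both arrays, beside 17.4% of all 29046 tested probes. The probes of a gene share their target and are not replicates.

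In the window from 250 bases before to 50 bases after the gene start, the letters of the ISRE core (GAAA, then 2 bases of any kind, then GAAA, on either strand) were found in 6 of the 9 member genes that have an entry in the RefSeq promoter table of GRCm38.p6. The same letters stand in 3.44% of all 32851 entries of that table, or in 3.99% of its genes. Among genes with an entry they were in 3 of 4 other Ifit genes and Cmpk2, and in 5 of 12 other antiviral effectors. Of sensors 3 of 8 had them, of ligands 3 of 9, and of other Oas genes and their partners 1 of 5. Transcription factors had them in 1 of 7, feedback inhibitors in 1 of 4, and receptors and kinases in 0 of 8. Rsad2, Oas1a, Oas1g, Oas3, Ifit1 and Ifit3 had a match, while Oasl1, Oasl2 and both entries of Ifit2 had none, which says only that these letters are not in this window. Oas2 had no entry. Oas1a and Oas1g each had a pair of matches that overlap, and Ifit1 and Ifit3 each had a pair that do not. The core of the gamma-activated site, TTCNNNGAA, which is the same on both strands, was in the windows of Oas1a and Ifit2, beside 8.30% of all entries. Antiviral genes of this class are known to carry the element, so the members' share of it is no separate finding. The 250 bases before the start of the 6 genes with an ISRE core follow, with the core in capitals. They run from 5' to 3' on the gene's strand:
Rsad2: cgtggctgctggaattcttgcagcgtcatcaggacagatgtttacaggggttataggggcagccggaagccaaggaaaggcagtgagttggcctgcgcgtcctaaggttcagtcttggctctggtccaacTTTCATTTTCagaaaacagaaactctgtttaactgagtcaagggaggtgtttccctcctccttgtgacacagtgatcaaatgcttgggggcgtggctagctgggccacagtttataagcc
Oas1a: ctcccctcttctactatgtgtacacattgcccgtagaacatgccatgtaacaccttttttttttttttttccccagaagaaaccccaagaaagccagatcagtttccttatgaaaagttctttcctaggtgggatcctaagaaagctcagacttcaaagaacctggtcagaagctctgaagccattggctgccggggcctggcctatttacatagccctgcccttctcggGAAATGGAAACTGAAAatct
Oas1g: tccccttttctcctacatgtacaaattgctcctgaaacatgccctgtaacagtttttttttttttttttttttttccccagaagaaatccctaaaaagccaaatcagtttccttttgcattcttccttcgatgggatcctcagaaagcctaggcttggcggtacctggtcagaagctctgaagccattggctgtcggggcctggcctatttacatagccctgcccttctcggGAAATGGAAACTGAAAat
Oas3: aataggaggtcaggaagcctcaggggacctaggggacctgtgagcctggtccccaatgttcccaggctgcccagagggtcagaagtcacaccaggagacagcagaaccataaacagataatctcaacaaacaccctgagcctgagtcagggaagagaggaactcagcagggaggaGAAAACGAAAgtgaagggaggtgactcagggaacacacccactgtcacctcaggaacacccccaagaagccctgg
Ifit1: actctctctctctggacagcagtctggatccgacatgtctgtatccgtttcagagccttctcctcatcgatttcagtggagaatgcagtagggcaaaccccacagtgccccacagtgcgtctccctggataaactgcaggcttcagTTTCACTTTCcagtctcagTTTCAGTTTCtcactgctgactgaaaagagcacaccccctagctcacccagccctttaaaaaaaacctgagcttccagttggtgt
Ifit3: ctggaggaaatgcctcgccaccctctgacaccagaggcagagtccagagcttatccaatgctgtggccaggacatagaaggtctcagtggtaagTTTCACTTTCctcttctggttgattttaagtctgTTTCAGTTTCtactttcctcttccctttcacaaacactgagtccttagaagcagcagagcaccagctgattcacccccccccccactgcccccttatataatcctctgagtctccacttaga
In GRCm38.p6 these stretches are chr12:26456453-26456702 for Rsad2, chr5:120907526-120907775 for Oas1a, chr5:120887614-120887863 for Oas1g and chr5:120777660-120777909 for Oas3, all on the minus strand. Those of Ifit1 and Ifit3 are chr19:34640639-34640888 and chr19:34583279-34583528, on the plus strand. The first base of the core stood 120 bases before the start in Rsad2 and 75 in Oas3. In Ifit1 the cores began 104 and 85 bases before the start, and in Ifit3 at 156 and 122. Oas1a and Oas1g share an identical run of 56 bases that begins 58 bases before the start in Oas1a and 56 in Oas1g, and holds all of their cores. Oas1a and Oas1g were 1.39-fold and 1.15-fold higher in the labelled knockout, but the Oas1g probe was near background. As processed ratios Oas1a was at 0.50 and Oas1g at 0.91, so their order depends on the processing. Whether the presence of a core goes with the size of the ratio was not tested. A match of letters is a description and not a measured binding site.

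The swap allows the ratio of each gene to be split into a genotype part, the mean ratio of knockout over wild type, and a dye part, the mean ratio of Cy5 over Cy3. The dye part was between -0.20 (Oas3) and 0.19 (Oasl1) in the 10 genes. In Oasl2, Rsad2, Oas2, Ifit1 and Oas1a the dye part was 0.12, 0.02, -0.13, 0.06 and 0.07. By construction the genotype part exceeds the dye part in size whenever both ratios have the same sign. This held in all members but Ifit2, and only restates the count of genes above 0 on both arrays. For Ifit2 the dye part of -0.16 was about as large as the genotype part of 0.15, and for Ifit3 it was 0.12 against 0.18. A dye effect cancels in the mean of the swapped arrays but stays in the SD.

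**Figure D3:**
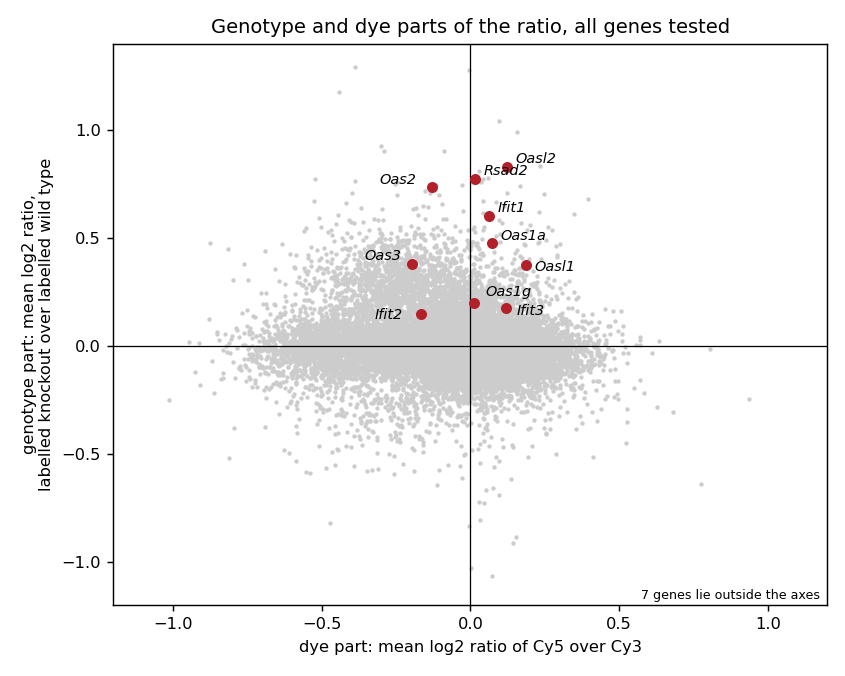
Genotype part (mean log2 ratio of labelled knockout over labelled wild type) against dye part (mean log2 ratio of Cy5 over Cy3) of all 18987 genes tested (grey) and the 10 genes described (red); 7 genes lie outside the axes. The 10 genes lie above 0 on the genotype axis and between -0.20 and 0.19 on the dye axis.

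The size of the ratio also moved with the processing and the brightness of the probe. With the software's processed ratios the median of the 10 genes was 0.58 in place of 0.43, all 10 were above 0 on both arrays (20.2% of all genes) and 4 reached 1.5-fold on both (0.542%). Mean ratios of some probes with high intensity differed little between the processings, such as Oas1a at 0.50 processed and 0.48 here, or Ifit3 at 0.19 and 0.18. The brightest, that of Oasl2, had a mean of 0.77 processed and 0.83 here. Its ratios on the arrays were 0.45 and 1.08 processed against 0.71 and 0.95 here. Dim probes differed most, with Oas1g at 0.91 processed and 0.20 here. The offset of 50 is added to both channels before the log is taken, so it draws ratios of dim probes towards 0.

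**Figure D4:**
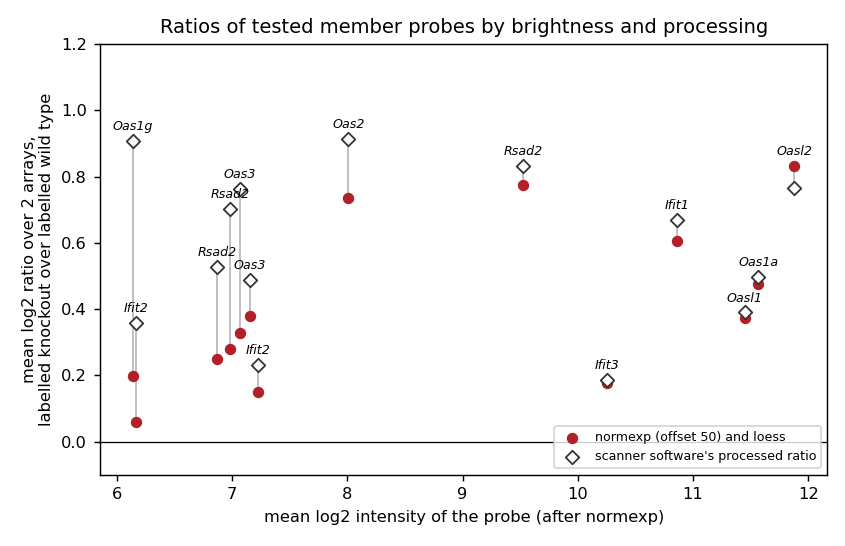
Mean log2 ratio (labelled knockout over labelled wild type) of the 14 tested probes against the probe's mean log2 intensity, after background correction with an offset of 50 and loess (red) and as the scanner software's processed ratio (open diamonds). The gap between the processings is widest for the dimmest probe, that of Oas1g, and every tested probe is above 0 in both.

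The rest of the pathway was described from lists by role, and limma called 0 genes of any of these lists at an adjusted p under 0.05. Their counts stand beside 16.9% of all genes higher on both arrays, 18.1% lower on both and 0.158% at least 1.5-fold higher on both. Among the other Oas genes and their partners, 2 of the 8 tested genes were higher on both arrays and 0 were lower on both. The median was 0.12, with 0.28 on replicate 1 and -0.01 on replicate 2. Oas1f was at 1.08 and 0.24, or 0.66 ± 0.59, and Oas1e at 0.05 ± 0.03.

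Among the other Ifit genes and Cmpk2, 1 of 4 was higher on both arrays, Ifit3b at 0.20 ± 0.04. The median was 0.15, with 0.21 on replicate 1 and -0.08 on replicate 2. Cmpk2, a nucleotide kinase that lies beside Rsad2 and is thought to supply the substrate of viperin, had ratios of 0.81 and -0.26, or 0.28 ± 0.75. Beside it, Rsad2 had 0.76 and 0.79 on the same arrays. As processed ratios Cmpk2 was at 0.44 and 0.07, above 0 on both arrays.

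Other antiviral effectors had a median of 0.34 (0.53 on replicate 1 and 0.18 on replicate 2), with 11 of 18 higher on both arrays, 0 lower on both and 2 at 1.5-fold on both. Usp18, which strips the ubiquitin-like protein Isg15 from its targets, was at 0.72 ± 0.22, Ifi44 at 0.67 ± 0.06, Isg15 itself at 0.62 ± 0.04 and Trim30a at 0.53 ± 0.05. Their ratios overlapped those of the members, which ran between 0.15 and 0.83.

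Of the interferon transcription factors, 5 of 8 were higher on both arrays and 0 lower on both, with a median of 0.23 (0.20 on replicate 1 and 0.23 on replicate 2). Irf9, which binds the ISRE, was at 0.31 ± 0.04 with its brightest probe and at 0.08 ± 0.31 with its other one. Its partner Stat2 was at 0.26 ± 0.09. Irf7, which Oasl1 holds back in translation, was at 0.30 ± 0.07.

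Of 12 nucleic acid sensors 11 were tested, 4 were higher and 1 lower on both arrays, and the median of 0.03 (0.19 on replicate 1 and 0.13 on replicate 2) changed sign in other settings. Zbp1, a sensor of left-handed nucleic acid, was at 0.55 ± 0.02, Dhx58 at 0.51 ± 0.50, Tlr7 at 0.18 ± 0.02 and Cgas at -0.09 ± 0.01, with 0.02 ± 0.05 for its other probe.

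The interferons themselves were mostly near background. Of 9 ligands 8 were on the array and 3 were tested, and Ifnb1, Ifna4, Ifne and Ifnk were not well above background in any channel. Ifng was the ligand higher on both arrays, at 0.23 ± 0.14. The median of the 3 was -0.12 on replicate 1 and 0.15 on replicate 2. Of the 9 receptors and kinases 1 was higher and 1 lower on both arrays, Ifnar2 at 0.39 ± 0.10 and Ifngr1 at -0.03 ± 0.03. Their median was -0.03, but the arrays disagreed, with 0.46 on replicate 1 and -0.28 on replicate 2. Of the 6 feedback inhibitors 2 were higher, Usp18 and the phosphatase Ptpn6 at 0.19 ± 0.02, and 1 was lower, Socs3 at -0.48 ± 0.01. Other tested probes gave -0.02 ± 0.25 for Socs3, and 0.11 ± 0.09 and -0.09 ± 0.31 for Ptpn6. The median of the inhibitors was 0.04, with -0.04 on replicate 1 and 0.21 on replicate 2.

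**Figure D5:**
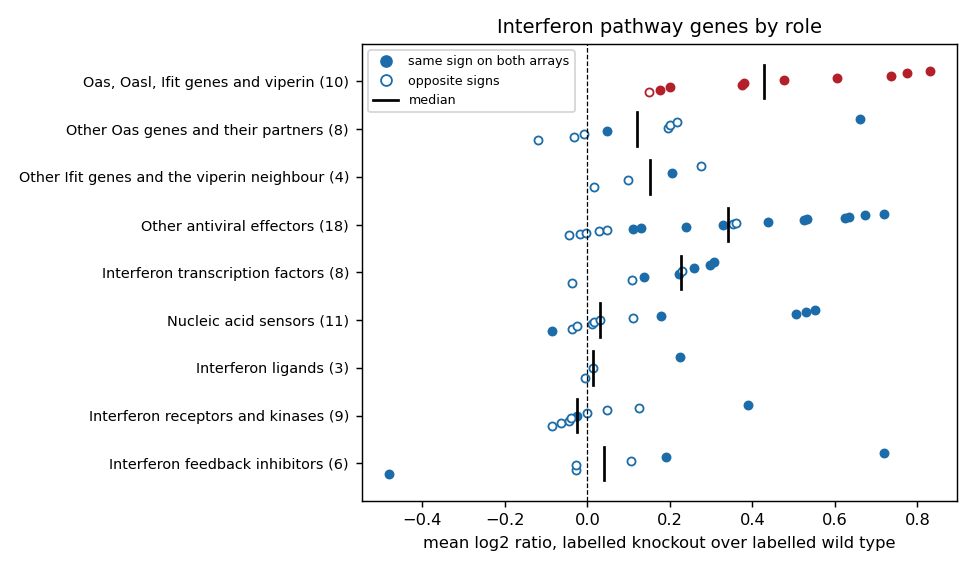
Mean log2 ratio (labelled knockout over labelled wild type) of each tested gene of the interferon pathway by role, with filled points where both arrays have the same sign, open points where they differ, a bar at each median and the number of genes in brackets. The members, which were picked from this contrast, have a median of 0.43. The other antiviral effectors have 0.34, the transcription factors 0.23, and ligands, receptors and sensors between -0.03 and 0.03. These last medians differ by array. On replicates 1 and 2 they are 0.46 and -0.28 for receptors and kinases, -0.12 and 0.15 for the 3 ligands, and 0.19 and 0.13 for sensors.

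Intestine is a mixture of cells, and in bulk RNA fewer cells of a type and less RNA per cell cannot be told apart. Intestinal epithelium markers were present, with summed intensities of 648458 and 612968 in the labelled knockout and 586741 and 623985 in the labelled wild type. Their median ratio was -0.06, and it ran between -0.13 and 0.08 over the settings tried. B cell markers were higher on both arrays in 8 of 8 genes (7 of 8 as processed ratios, beside 16.9% and 20.2% of all genes), with a median of 0.42 beside the members' 0.43, and sums of 8189 and 7699.5 in the labelled knockout and 5333 and 5555 in the labelled wild type. T cell markers were higher on both arrays in 5 of 8 genes, with a median of 0.26 and sums of 4912 and 4844 in the labelled knockout and 3893 and 4002 in the labelled wild type. Of 5 markers of plasmacytoid dendritic cells, known as strong producers of interferon, 4 were higher and 1 lower on both arrays. Their median was 0.19, with sums of 4798 and 3640.2 in the labelled knockout and 4027 and 4084 in the labelled wild type. The sum was thus higher in the labelled knockout on replicate 1 and lower on replicate 2. Macrophage and monocyte markers had opposite signs on the arrays in 7 of 7 genes, with a median of -0.12 (-0.16 on replicate 1 and 0.13 on replicate 2). Of 4 tested neutrophil markers 2 were higher on both arrays, with a median of 0.12. Skeletal muscle markers were higher on both arrays in 6 of 8 genes and lower in 2, with a median of 0.40 (1.499 as processed ratios), and sums of 2894 and 2915 in the labelled knockout, and 2017 and 1875 in the labelled wild type. At least 1.5-fold on both arrays was reached by 3 of them, and Myh4, named after its values were seen, was at 2.18 ± 0.23. All markers of these lists that are on the array passed the filter on dim signal. That filter can be passed through 1 genotype alone, so a marker can be near background in the other. The sums include the offset of 50 that the background correction adds to each gene. The part of these cell types in the ratios of the Oas, Ifit and viperin genes was not tested.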

How the data were processed

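Intestinal total RNA of both genotypes was measured on 2 dual-colour arrays with swapped dyes. The authors' deposited scanner files hold intensity values per spot and channel from Feature Extraction 11.5.1.1 per the file headers (9.5 per the submitters' processing notes), raw and processed. The deposited log10 ratio is processed Cy5 over processed Cy3, and the deposited value table holds the same ratios within 5e-04, unturned for the swap, with a column median of 0 on both arrays.

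Raw intensities were background-corrected with normexp (offset 50) and normalized by loess within each array in R 4.3.3 with limma 3.58.1, with control spots at weight 0. Spots marked by the software for the feature (133 and 193) or the local background (0 and 47) were left out first. The planned design named feature marks only. Background marks were added once the normexp mean of Cy5 on replicate 2 was seen at -370 without them, against -8.61 with them. Log2 ratios were computed from the authors' intensities and turned to knockout over wild type. Spots of a probe were averaged, and a probe was tested when well above background for 1 genotype on both arrays (29046 probes). The brightest tested probe stood for a gene. Of 43379 gene spots 31441 were named through RefSeq, and the rest kept the file's name. limma's lmFit and eBayes tested the mean ratio against 0 over all 18987 genes (1 residual and 3.01 prior degrees of freedom), with no dye term. The fit was tested on simulated data with independent noise on the arrays and no dye effect. That simulation does not cover the dye differences seen here.

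The 10 genes and all lists were chosen with earlier results of these data known. Named beside them are Gpcpd1, Cmpk2 and, per list, up to 4 genes with the same sign on both arrays and the largest smaller ratio. Some genes that this rule names are not reported here, but count in their lists. The 245 probes printed 10 times had log2 ratios with a median SD over spots of 0.183 and 0.121. Promoter and probe letters were read from RefSeq's table and the array files, and motif letters were searched on both strands with overlaps kept. Member probes held 35.0% to 51.7% G and C, with a median of 40.0%, the same median as for all gene probes.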

Additional observations from a re-analysis of the deposited data

How the results depend on the processing

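Over the 11 alternatives that use both arrays, 8 to 10 of the 10 genes were higher on both arrays, and each of the 10 had a mean ratio above 0. With a single array this held except for Ifit2 (-0.02 on replicate 2). Of all genes, limma called 0 in the setting reported, 38 with the software's processed ratios, 36 with the deposited value table, 22 with an offset of 0, 4 with a surface trend removed and 16 with processed ratios and the mean of a gene's probes. Genes at least 1.5-fold apart between genotypes on both arrays (41) became 159, 157 and 89 with processed ratios, the value table and an offset of 0, 153 with processed ratios and the mean of probes, and 21 with all spots kept. With only feature marks left out, as first planned, there were 21, and without 1 of the arrays 756 to 1049, since then 1 array decides. Member genes at 1.5-fold on both arrays (3) became 1 with median centring, with all spots kept and with only feature marks left out. They became 2 with the mean of probes, and 3 to 4 without 1 array. With processed ratios (also with the mean of probes), the value table, an offset of 0 and a surface trend removed there were 4. The members' median (0.43) became 0.58 with processed ratios and with the value table, 0.60 with an offset of 0 and 0.65 with processed ratios and the mean of probes, and 0.47 to 0.55 on 1 array. Rsad2 had 0.43 as the mean of its 3 probes and 0.63 with all spots kept. Oas1g had 0.11 with all spots kept, 0.69 with an offset of 0 and 0.91 as processed. Over the same 11 alternatives Oas3 ran between 0.31 and 0.62, Ifit2 between 0.10 and 0.29 and Ifit3 between 0.10 and 0.19. Of the list medians, that of the nucleic acid sensors (0.03) became -0.0016 with median centring, -0.0069 with all spots kept, -0.0068 with only feature marks left out and -0.0088 with processed ratios and the mean of probes. That of receptors and kinases (-0.03) was 0.086 with all spots kept and 0.087 with only feature marks left out, and that of ligands (0.01) was -0.047 in both and -0.0044 with a surface trend removed. On single arrays the medians of receptors, ligands, other Oas genes and partners, other Ifit genes, feedback inhibitors, and of macrophage and epithelium markers, had opposite signs. Skeletal muscle markers moved between 0.24 and 1.57. The cause of these differences was not tested, except that an offset draws dim ratios towards 0 by construction. The 2 probes not well above background allow no reading. Each ratio already pairs both genotypes of 1 array, so no further block was fitted. The setting reported, in its use of background marks, and the alternative with processed ratios and the mean of probes were chosen after seeing the data.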
